A study of Mus musculus with 59 samples.

Results

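Vegfa and 9 other genes of the cellular response to low oxygen were followed in embryoid bodies exposed to mouse serum. The 10 genes, chosen by their symbols among the 19613 genes measured, were Vegfa, Hif1a, Egln3, Adm, Slc2a1, Pdk1, Bnip3, Car9, Ankrd37 and Ndrg1. Vegfa was chosen because its level was lower with serum from carrier mice in these same arrays, so its serum difference is given as a description, with no test. The questions were whether targets of the hypoxia-inducible factor HIF1 were lower with it, and whether Vegfa instead followed Atf4.

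When oxygen is plentiful, prolyl hydroxylases mark the HIF alpha subunit for destruction, and when it is scarce the subunit pairs with ARNT and turns on genes for glucose uptake, glycolysis, mitochondrial clearance and blood vessel growth. HIF1 alpha is governed mainly as a protein, so its mRNA need not follow its activity. ATF4 is a transcription factor whose translation rises under endoplasmic reticulum stress and amino acid shortage, and it drives amino acid synthesis and transport. Vegfa, a secreted factor that makes blood vessels grow and supports neurons, is known as a target of both.

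The cells were embryoid bodies made from HBG3 mouse embryonic stem cells, which carry the fluorescent motor neuron reporter HB9-eGFP, and they contained spinal motor neurons among other cells. They were exposed for 24 h to serum of male mice hemizygous for a human SOD1 G93A transgene, a model of amyotrophic lateral sclerosis (carrier serum, 29 arrays), or of non-carrier littermates (non-carrier serum, 30 arrays). Serum donors of both groups were F1 progeny of C57BL/6 and SJL, labelled 9 weeks except in 1 run labelled 10 weeks. As the labels name no batch, the arrays were sorted into 9 runs by the names and number ranges in their titles. Runs titled motorneuron, HB9MNs and 10wk kept those names, and the 6 numbered runs are called A to F. Age and run cannot be told apart for the 10wk run. Embryoid bodies are mixtures, so fewer cells of a type and less RNA per cell cannot be told apart.

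The motor neuron markers Mnx1, Isl1, Lhx3 and Chat were measured at mean log2 intensities of 8.87, 10.51, 9.06 and 9.04. Averaged per array, the 5 motor neuron markers measured ranged from 8.98 to 9.65 with carrier serum and from 9.13 to 9.61 with non-carrier serum. None of the 5 motor neuron, 4 progenitor, 8 endothelial, 4 red cell or 5 pluripotency markers passed an adjusted p of 0.05 for serum in limma over all genes. Their median carrier minus non-carrier differences (log2) were -0.023, -0.021, 0.069, 0.039 and 0.11, in that order, beside 0.016 over all genes. The lack of calls does not show that the mixture of cells was the same. Median intensities per array lay between 151 and 183 on the linear scale. Run C stood apart for these genes and holds 11 arrays, more than the size of a batch that the methods give. It may therefore hold more than 1 batch of embryoid bodies, but the labels do not say which arrays shared one, for this or any other run.

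The promoters of 5 of the genes are shown because they hold, or lack, the letters that HIF1 binds. Within run and serum, the levels of 4 of them moved together over all arrays, mainly through run C, while that of Car9 did not. Outside run C, r was 0.36 to 0.47 between Vegfa and Slc2a1, Bnip3 and Ankrd37. It was 0.38 between Slc2a1 and Bnip3, and 0.12 and 0.14 between Ankrd37 and these 2. Across the run means, Car9 had r = 0.64 with Slc2a1. Car9 was dim, with a mean log2 intensity of 5.71, and it, Adm (6.91) and Ankrd37 (7.18) lay below the median gene of the array. The file does not say whether a gene was above background. Each line gives the 250 bases before the most upstream transcription start in RefSeq (GRCm38.p6), read 5′ to 3′ on the gene's own strand. Capitals mark the core of the hypoxia response element, ACGTG or GCGTG, on either strand.
Vegfa (chr17:46032378-46032627, minus strand): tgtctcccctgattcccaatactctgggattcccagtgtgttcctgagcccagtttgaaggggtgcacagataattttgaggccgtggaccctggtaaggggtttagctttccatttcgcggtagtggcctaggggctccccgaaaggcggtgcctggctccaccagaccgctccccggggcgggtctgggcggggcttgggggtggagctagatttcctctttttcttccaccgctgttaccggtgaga
Slc2a1 (chr4:119108495-119108744, plus strand): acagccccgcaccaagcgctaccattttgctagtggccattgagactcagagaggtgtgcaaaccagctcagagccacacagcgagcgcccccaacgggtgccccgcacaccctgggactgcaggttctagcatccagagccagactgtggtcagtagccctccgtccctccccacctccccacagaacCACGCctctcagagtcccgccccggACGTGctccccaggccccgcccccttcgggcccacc
Bnip3 (chr7:138909507-138909756, minus strand): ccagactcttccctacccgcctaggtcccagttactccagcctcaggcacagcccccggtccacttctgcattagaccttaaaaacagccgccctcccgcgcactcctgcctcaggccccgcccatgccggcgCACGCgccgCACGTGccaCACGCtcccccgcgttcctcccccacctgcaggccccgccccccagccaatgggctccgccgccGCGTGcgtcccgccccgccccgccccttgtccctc
Ankrd37 (chr8:45999851-46000100, minus strand): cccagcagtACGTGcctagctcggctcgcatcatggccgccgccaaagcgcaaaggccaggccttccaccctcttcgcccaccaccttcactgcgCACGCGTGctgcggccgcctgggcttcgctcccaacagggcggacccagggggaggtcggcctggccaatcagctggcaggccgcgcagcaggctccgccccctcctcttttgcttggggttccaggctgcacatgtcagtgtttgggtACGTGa
Car9 (chr4:43506776-43507025, plus strand): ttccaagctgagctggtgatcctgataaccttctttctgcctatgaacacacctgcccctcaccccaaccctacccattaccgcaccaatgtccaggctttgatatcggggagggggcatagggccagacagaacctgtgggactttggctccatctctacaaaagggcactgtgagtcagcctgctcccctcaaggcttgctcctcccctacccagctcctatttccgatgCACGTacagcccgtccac
At least 1 core stood in the windows of 8 of the 9 genes that had one, against 38.6% of all 32851 windows of this length. The core ACGTG, which overlaps its own reverse in CACGTG and is then counted on both strands, stood in 6 of 9, against 16.6%. Bnip3 held 5 matches, Ankrd37 held 4, Hif1a held 3, Slc2a1 and Adm held 2 each, and Egln3, Pdk1 and Car9 held 1 each. No match stood in the window of Vegfa, and bases farther upstream were not read. The C/EBP-ATF element bound by ATF4 (searched as TGATGAAA and TGATGCAA on both strands) stood in none of the 9 windows, against 1.67% of all windows. Ndrg1 had no window. The genes were chosen as genes of the response to low oxygen, and each was read at its most upstream start, while the shares count the windows of all starts. These matches describe letters in short windows and do not say where a factor binds.

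Vegfa had a log2 intensity between 9.89 and 10.89 with carrier serum, with a median of 10.65, and between 9.97 and 11.02 with non-carrier serum, with a median of 10.83. The groups overlapped over most of their range. With the run as a block, the carrier minus non-carrier difference was -0.17 (SE 0.050, 95% confidence interval -0.27 to -0.070, n = 29 and 30). Carrier means were lower in 8 of 9 runs, and in 6 of these every carrier array was below every non-carrier array of the run. How often other genes parted in this way was not counted. With as few as 2 arrays of each serum in a run such parting can arise by chance, so the count only describes a gene chosen for its fall. The difference was widest in run B, where carrier arrays read 9.89, 9.96 and 10.20 and non-carrier arrays 10.46, 10.58 and 10.70. It was smallest in size in the run titled motorneuron, at -0.026. Run C alone had a higher mean with carrier serum, by 0.15.

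None of the 9 other genes passed an adjusted p of 0.05 in the same fit, in which 2.33% of all genes did. Before adjustment, Pdk1 (p = 0.0114 in limma) and Slc2a1 (p = 0.0399) were under 0.05. The difference closest to that threshold belonged to Pdk1, the kinase that keeps pyruvate out of the mitochondrion, at -0.14 (SE 0.055, adjusted p = 0.134 in limma). Pdk1 ranged from 8.13 to 9.80 with carrier serum, with a median of 9.54, and from 8.83 to 9.87 with non-carrier serum, with a median of 9.44. The medians and the fitted difference thus pointed opposite ways for Pdk1, while its group means, 9.28 and 9.43, lay the same way as the fit. Slc2a1, the glucose transporter GLUT1, ranged from 10.87 to 12.66 with a median of 12.19 with carrier serum, and from 11.39 to 12.72 with a median of 12.27 with non-carrier serum. Its difference was -0.13 (SE 0.060, adjusted p = 0.220). Ndrg1, a cytoplasmic stress-response protein, differed by -0.17 (SE 0.090, adjusted p = 0.263), with medians of 9.22 and 9.39.

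The secreted vasodilator peptide Adm, the mitophagy receptor Bnip3 and the ankyrin repeat protein Ankrd37 had differences of -0.10, -0.076 and -0.058 (adjusted p = 0.411, 0.407 and 0.511). The regulators were closer to 0. Egln3, a prolyl hydroxylase that acts on HIF alpha, differed by -0.031 (95% confidence interval -0.11 to 0.048). Hif1a itself differed by 0.0013 (95% confidence interval -0.047 to 0.050), with ranges of 9.85 to 10.66 and 9.82 to 10.63. The sign of so small a value turned with median centring of the arrays (-0.0060). Car9, a carbonic anhydrase of the cell surface, differed by 0.0046 (95% confidence interval -0.075 to 0.084), and its sign also turned with the scaling (-0.0027 median centred). Over the 9 genes the median difference was -0.076, and over all genes it was 0.016.

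**Figure D1:**
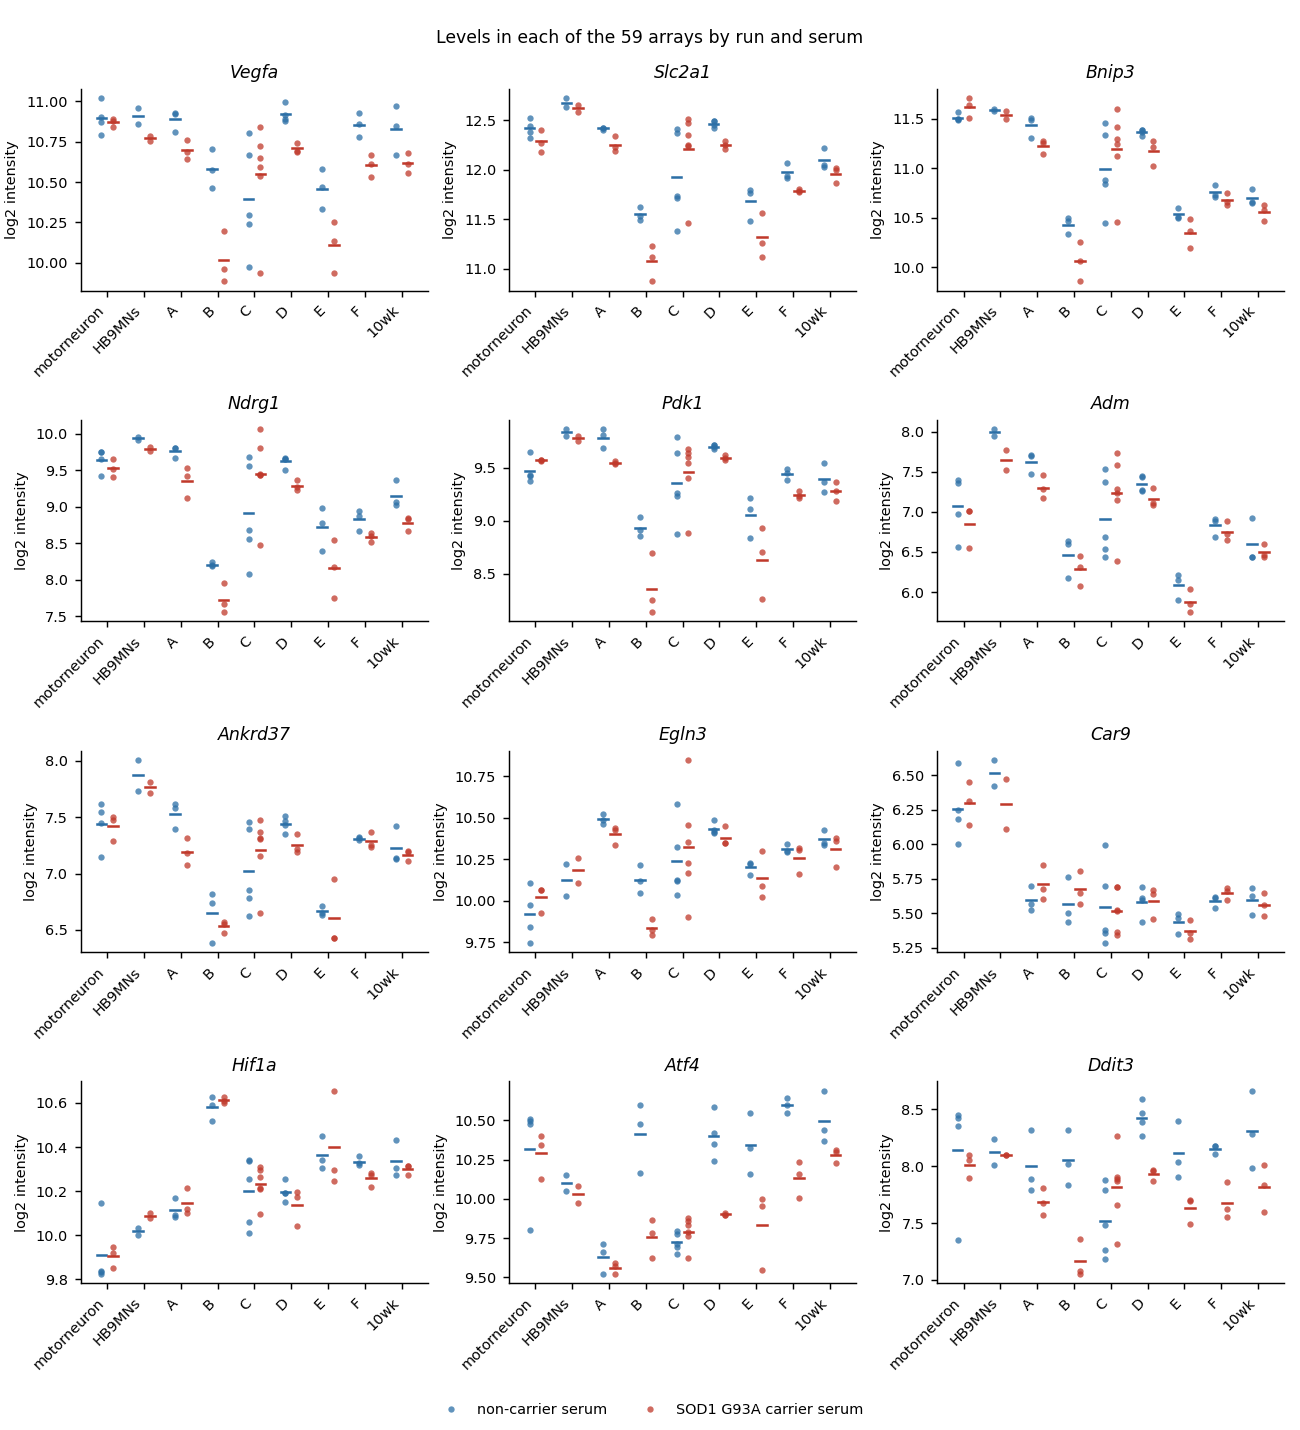
Log2 intensity of each array (points) by run, with carrier serum in red and non-carrier serum in blue. Lines mark the mean of each run and serum. Vegfa was lower with carrier serum in 8 of 9 runs, Hif1a in 4 of 9, and the arrays of run C spread widely in Vegfa, Slc2a1, Bnip3, Ndrg1 and Adm with either serum.

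Run C carried much of the spread. The SD of Vegfa among its arrays of one serum was 0.32 with carrier and 0.34 with non-carrier serum, whereas in the other runs it lay between 0.020 and 0.16. The same held for Slc2a1, with 0.38 and 0.45 against 0.0099 to 0.23, and for Ndrg1, with 0.54 and 0.69 against 0.028 to 0.40. For Hif1a, with 0.077 and 0.16 against 0.014 to 0.22, and for Atf4, with 0.093 and 0.061 against 0.0078 to 0.35, run C was within the range of the others.

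In run C, the order of the sample list sets 5 arrays (2 non-carrier and 3 carrier) before the other 6. In the 5 arrays, Bnip3 read 11.45 and 11.34 with non-carrier serum and 11.60, 11.42 and 11.30 with carrier serum. In the other 6 it read 10.88, 10.84 and 10.44 with non-carrier serum and 11.13, 11.24 and 10.46 with carrier serum. The first 5 were thus all higher than the other 6, with either serum. Vegfa read 10.81 and 10.67 with non-carrier and 10.84, 10.72 and 10.59 with carrier serum in the 5 arrays, and 10.30, 10.24 and 9.97 with non-carrier and 10.54, 10.65 and 9.94 with carrier serum in the 6. In those 6 arrays, 2 of 3 carrier arrays were above every non-carrier array. Carrier means of run C were higher by 0.54 for Ndrg1, 0.32 for Adm, 0.29 for Slc2a1 and 0.20 for Bnip3. What set the arrays of run C apart was not tested.

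Run C was singled out after its values were seen. It was the only run with a higher carrier mean for Vegfa, Ndrg1, Slc2a1, Adm and Ankrd37. Leaving it out thus removes contrary values, and the p-values without it do not allow for that choice. Without run C, the serum difference of Vegfa was -0.24 (SE 0.035). Of the 9 other genes, 5 were lower at an adjusted p under 0.05, where 4.68% of all genes were lower and 8.16% differed either way. Ndrg1 fell by 0.33 on the log2 scale (SE 0.050, adjusted p = 3.64e-05 in limma) and Slc2a1 by 0.22 (SE 0.034, adjusted p = 5.29e-05). Bnip3 fell by 0.14 (adjusted p = 0.00561), Pdk1 by 0.20 (adjusted p = 0.00663) and Adm by 0.20 (adjusted p = 0.0158). Ankrd37 differed by -0.11 (adjusted p = 0.0683) and Egln3 by -0.058 (adjusted p = 0.188). Hif1a, at -0.0054, and Car9, at 0.011, again had intervals on both sides of 0. With run C kept but parted into these 2 blocks, none of the 9 passed, while 647 of all genes did. The lowest adjusted p of the 9 was then that of Pdk1, at 0.0570. The serum by run interaction passed for 0.127% of all genes and for none of the 10, the lowest adjusted p of the other 9 being 0.554, for Ndrg1.

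**Figure D2:**
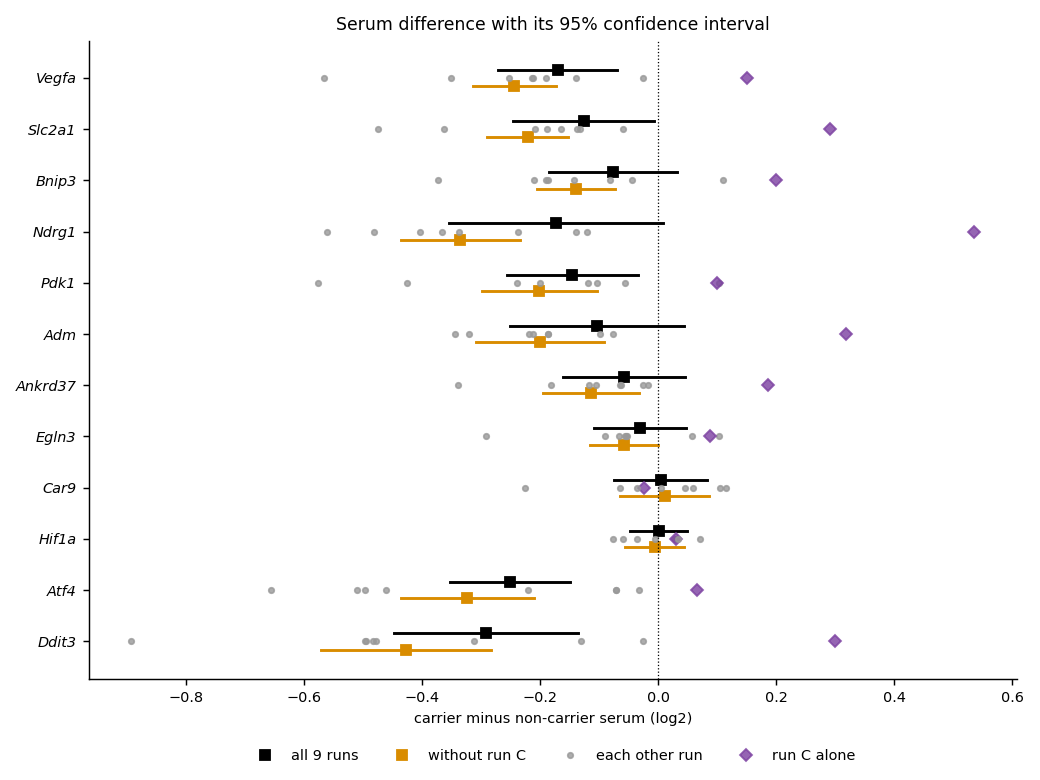
Carrier minus non-carrier difference (log2) of each gene, with its 95% confidence interval, over all 9 runs (black) and without run C (orange). Grey points are the other runs one by one and purple diamonds are run C, which lay above 0 for Vegfa, at 0.15, and for Ndrg1, at 0.54.

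Of a wider list of 49 HIF targets on the array that left out the 10 genes, 3 fell and none rose over all runs, beside 1.65% of all genes that fell and 0.683% that rose. They were glycogen synthase Gys1 at -0.12 (SE 0.030, adjusted p = 0.0190), the mTORC1 inhibitor Ddit4 at -0.31 (SE 0.085, adjusted p = 0.0367) and heme oxygenase Hmox1 at -0.22 (SE 0.059, adjusted p = 0.0365). Ddit4 and Hmox1 are known to respond to other stresses as well. The calls were thin, as none of the 49 passed when any one of runs A, B, D, E, F or 10wk was left out. The differences of 46 of 49 were below 0, with a median of -0.085. All 6 genes of mitochondria and autophagy and all 3 of collagen and matrix had differences below 0, with medians of -0.089 and -0.14, and none of these 9 passed the test.

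Without run C, a choice made after its values were seen, 28 of the 49 fell and none rose, beside 4.68% of all genes that fell. The median was -0.13 over the list and 0.020 over all genes. Among the 28 were Ero1l, the oxidase that forms disulfide bonds in the endoplasmic reticulum, at -0.27 (adjusted p = 3.82e-06), hexokinase Hk2 at -0.24 (adjusted p = 1.08e-05) and the oxygen-sensing hydroxylase Egln1 at -0.14 (adjusted p = 3.36e-05). Pfkfb3, which sets the pace of glycolysis, and the collagen-modifying lysyl hydroxylase Plod2 were at -0.28 each. Over all runs, where 3 of the 49 targets passed, none of the 17 genes of the HIF pathway itself (subunits, hydroxylases, the VHL ligase and coactivators) did. Among the 17 were Arnt at -0.0016, Epas1 at 0.050 and Vhl at -0.055. Egln1 is on both lists and fell without run C, as given above, so these counts do not set targets apart from pathway genes. Over all runs, none of the 9 other ligands and receptors of the VEGF family passed either, with Vegfb at -0.035, the placental growth factor Pgf at 0.053 and the receptor Kdr at 0.026.

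Atf4 fell with carrier serum over all runs, by 0.25 on the log2 scale (SE 0.051, adjusted p = 0.00329). It ranged from 9.52 to 10.40 with carrier serum, with a median of 9.90, and from 9.52 to 10.69 with non-carrier serum, with a median of 10.34. Every carrier array was below every non-carrier array in 5 of 9 runs, a count that again has no share of all genes beside it. Of 25 ATF4 targets and partners, Atf4 among them, 21 fell and none rose, with a median of -0.25, beside 1.65% of all genes that fell. Without run C 24 fell, beside 4.68% of all genes. This list was written with earlier results of these arrays known and is not independent evidence of its direction. Those with the lowest p were the proline synthesis enzyme Aldh18a1 at -0.24, the folate enzyme Mthfd2 at -0.39, the amino acid transporters Slc7a1 and Slc7a5 at -0.35 and -0.32, the endoplasmic reticulum protein Herpud1 at -0.30 and cystathionine gamma-lyase Cth at -0.42, with adjusted p from 0.00221 for Aldh18a1 to 0.00303 for Cth.

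The runs differed far more than the sera. All 10 genes differed by run in limma's F test, as did 94% of all genes. The run accounted for 55.0% of the variance of Vegfa and for 83.2% of that of Bnip3. From highest to lowest, the mean of Vegfa was 10.89 in the run titled motorneuron, 10.84 in HB9MNs, 10.83 in D, 10.79 in A, 10.73 in F, 10.72 in 10wk, 10.48 in C, 10.30 in B and 10.29 in E. Arrays of neighbouring runs in this order overlapped in every case. Slc2a1 ran from 11.31 in B to 12.65 in HB9MNs, Ndrg1 from 7.97 in B to 9.87 in HB9MNs, and Adm from 5.98 in E to 7.82 in HB9MNs. Bnip3 (10.25 to 11.56), Pdk1 (8.65 to 9.81) and Ankrd37 (6.59 to 7.82) were also lowest in B and highest in HB9MNs, and Car9 ran from 5.41 in E to 6.41 in HB9MNs. Egln3 was lowest in motorneuron, at 9.96, and highest in A, at 10.45.

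Hif1a mRNA ran the other way, from 9.91 in motorneuron to 10.60 in B. Across the 9 run means, Pearson's r with Vegfa was 0.92 for Ankrd37, 0.89 for both Pdk1 and Slc2a1, 0.84 for Ndrg1, 0.80 for Bnip3, 0.74 for Adm and 0.60 for Car9, and it was -0.81 for Hif1a, 0.30 for Egln3, 0.19 for Atf4 and 0.77 for Ddit3, the stress factor CHOP that acts beside ATF4. Spearman's rho for Hif1a was -0.92. These 11 relations are descriptions over 9 points that share the batch of cells, the handling and the scaling of a run. Atf4 was lowest in A, at 9.60, and highest in 10wk, at 10.39.

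To ask what Vegfa followed apart from the serum, each array was set against the mean of its own run and serum. Over all 59 arrays these deviations of Vegfa went with those of Bnip3 (r = 0.89), Slc2a1 (0.87), Ndrg1 (0.84), Pdk1 (0.76), Ankrd37 (0.75), Adm (0.73) and Egln3 (0.65). With the level of Vegfa as a covariate, limma called these 7 of the 9 genes, while 2.48% of all genes went with Vegfa and 3.42% against it. Car9 (r = 0.18, adjusted p = 0.636), Hif1a (r = -0.27, adjusted p = 0.396) and Atf4 (r = 0.24, adjusted p = 0.480) were not called, whereas Ddit3 was (r = 0.70, adjusted p = 2.13e-05). With the level of Atf4 as the covariate in place of Vegfa, none of the 10 genes was called (Vegfa adjusted p = 0.284), while 3.97% of all genes went with Atf4 and 3.59% against it. Permutation within run and serum gave p = 3e-05 for both Pearson's r and Spearman's rho, 0.68, of Slc2a1, and p = 0.0486 and 0.00328 for the r and the rho, 0.44, of Atf4 (two-sided, unadjusted, 11 relations computed). By rank, Ddit3 was the closest of the 11 to Vegfa (rho 0.74, permutation p = 1e-05), ahead of Slc2a1 and of Bnip3 (rho 0.66). The permutation treats the arrays of run C with one serum as exchangeable. With the 2 parts of run C as separate blocks, 6 of the 9 genes and 23 of the 49 wider HIF targets were called with Vegfa, against 7 and 37 with run C whole. Among all 19612 genes, those called with or against Vegfa numbered 350 and 1156 in these 2 settings. Without the 2 arrays farthest from the median of Vegfa, r was 0.76 for Slc2a1 and 0.28 for Atf4.

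Ranked over 19612 genes, the 10 closest to Vegfa were all on the HIF list or among the 9 genes. They were the lipoprotein receptor Vldlr (r = 0.94), Ero1l (0.93), the collagen prolyl hydroxylase P4ha1 (0.91), phosphofructokinase Pfkp (0.90), Plod2 (0.90), Bnip3, Slc2a1, the neuronal glucose transporter Slc2a3 (0.86), Hk2 (0.85) and P4ha2 (0.85). The 3 most opposed were the kinase Sgk1 (-0.80), Fam198b (-0.78) and Arhgap36 (-0.77). Of the 49 HIF targets, 37 went with Vegfa and 1, Pfkfb4, against it (median r 0.67). Of the 25 genes of the ATF4 list, 16 went with it (median r 0.51), and the median over all genes was 0.018. The mean of the 8 HIF targets among the 10 genes had r = 0.88 with Vegfa, and the mean of 21 ATF4 targets (without Atf4 and genes known as targets of both) had r = 0.59.

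**Figure D3:**
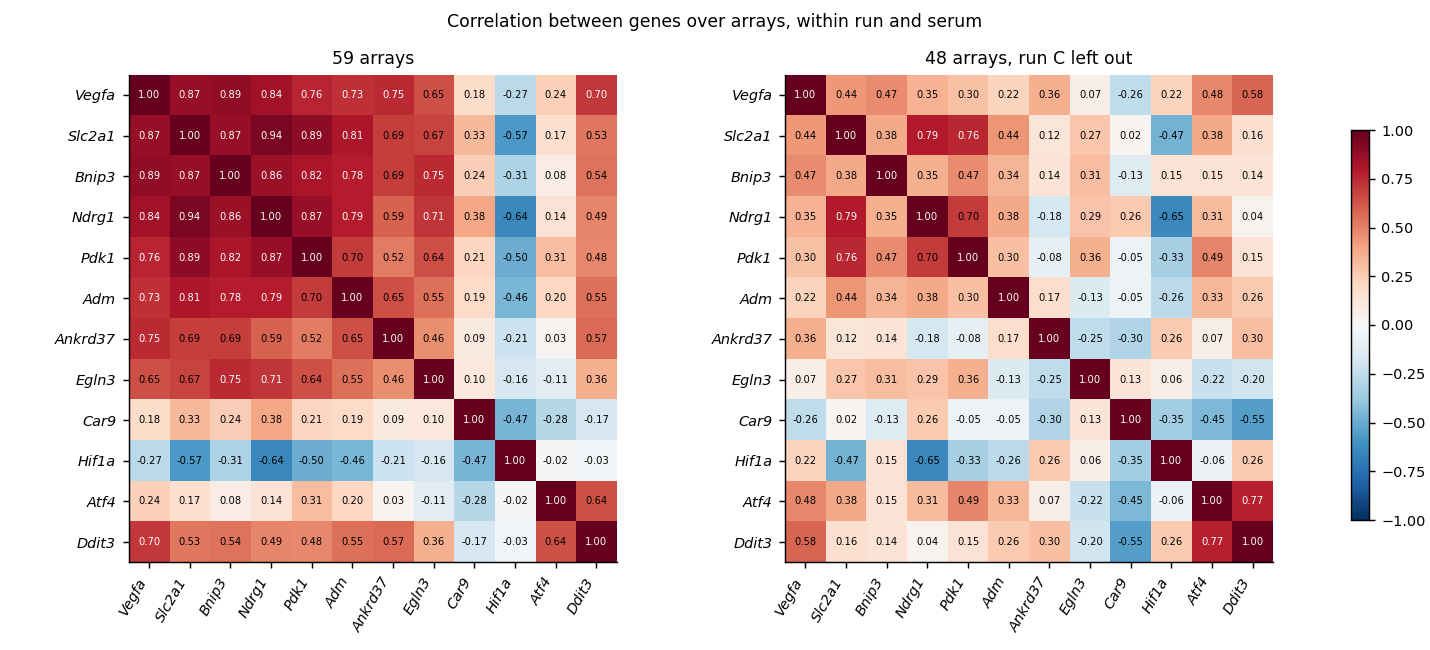
Pearson's r between genes over arrays, after the mean of each run and serum was taken away, for 59 arrays (left) and for the 48 arrays outside run C (right). Red is above 0 and blue below. Slc2a1 and Vegfa had r = 0.87 on the left and 0.44 on the right, while Atf4 and Vegfa had 0.24 and 0.48.

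This likeness rested on run C. Within its 11 arrays, r with Vegfa was 0.99 for Bnip3 and Slc2a1, 0.98 for Ndrg1 and Pdk1, 0.97 for Adm, 0.95 for Ddit3 and 0.044 for Atf4. In the 48 arrays of the other 8 runs, r was 0.47 for Bnip3, 0.44 for Slc2a1, 0.36 for Ankrd37, 0.35 for Ndrg1, 0.30 for Pdk1, 0.22 for Adm and Hif1a, 0.067 for Egln3 and -0.26 for Car9. None of the 9 was called there, and the genes called came to 0.143% of all with Vegfa and 0.0051% against it. Leaving out any other single run kept the r of Vegfa with the HIF target mean at 0.88 to 0.91, whereas leaving out run C gave 0.44. Pairs of the 8 HIF targets had a median r of 0.92 within run C and 0.27 in the other runs, where Slc2a1, Ndrg1 and Pdk1 still went together (0.79 for Slc2a1 with Ndrg1 and 0.76 with Pdk1).

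Outside run C, Vegfa had r = 0.48 with Atf4. In limma this passed with Atf4 as the covariate (adjusted p = 0.0467), where Pdk1 passed too (r = 0.49, adjusted p = 0.0366) and 5.1% of all genes went with Atf4 and 7.03% against it. It did not pass with Vegfa as the covariate (adjusted p = 0.299). Vegfa had r = 0.58 with Ddit3 and 0.68 with the mean of the 21 ATF4 targets, against 0.44 with the mean of the 8 HIF targets. The HIF and ATF4 target means were close to unrelated there (r = 0.020), so with the other held constant r was 0.74 for the ATF4 targets and 0.58 for the HIF targets. The median r with Vegfa was 0.56 over the ATF4 list and 0.20 over the HIF list, beside 0.012 over all genes. The differences between these values of r were not tested. By run, r with the ATF4 target mean exceeded that with the HIF target mean in motorneuron (0.81 and 0.24), HB9MNs (0.99 and -0.17), B (0.68 and 0.62), E (0.69 and 0.32), F (0.89 and 0.72) and 10wk (0.91 and 0.082), and was below it in A (0.42 and 0.86), C (0.92 and 0.99) and D (0.61 and 0.68). Each of these values rests on 4 to 11 arrays. In HB9MNs, with 2 arrays of each serum, the deviations of each pair are mirror images. Its values of r thus rest on 1 difference per serum and say little.

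Of the 29 genes called with or against Vegfa outside run C, 4 were of the HIF list, Vldlr (r = 0.86), Ero1l (0.74), P4ha1 (0.67) and Stc2 (0.62). Vldlr, Ero1l and Stc2 are also known as ATF4 targets. On the ATF4 list were Pycr1 (r = 0.71) and Aldh18a1 (0.64) of proline synthesis, the stress factor Atf3 (0.70), Cth (0.65), the mTORC1 inhibitor Sesn2 (0.65) and the transporters Slc7a1 (0.64) and Slc3a2 (0.64). Neither list held Slc1a5 (r = 0.75), a glutamine transporter, Ppp1r15a (0.72), which restores translation after stress, Ubr2 (0.76), a ubiquitin ligase, or the leucine and isoleucine tRNA synthetases Lars (0.64) and Iars (0.65). These names were chosen after their values were seen.

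**Figure D4:**
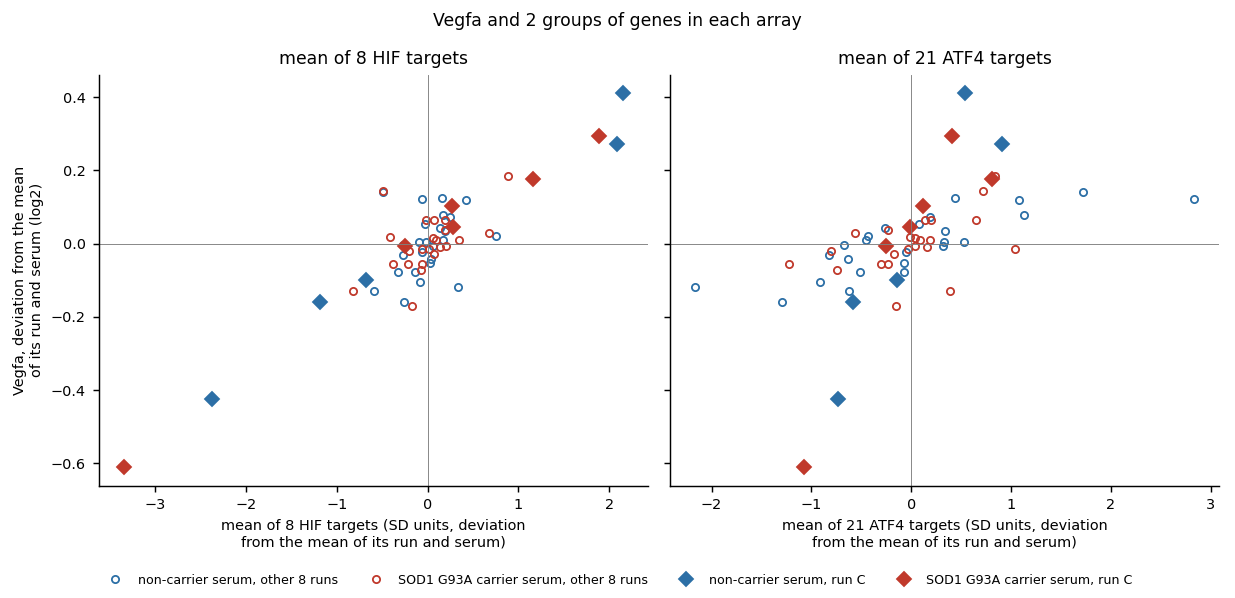
Deviation of Vegfa (log2) from the mean of its run and serum against that of the mean of 8 HIF targets (left) and of 21 ATF4 targets (right), in SD units. Filled diamonds are run C and open circles the other 8 runs. Against the HIF targets the arrays of run C lie along a line (r = 0.99), and the other arrays gather near the centre (r = 0.44).

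**Figure D5:**
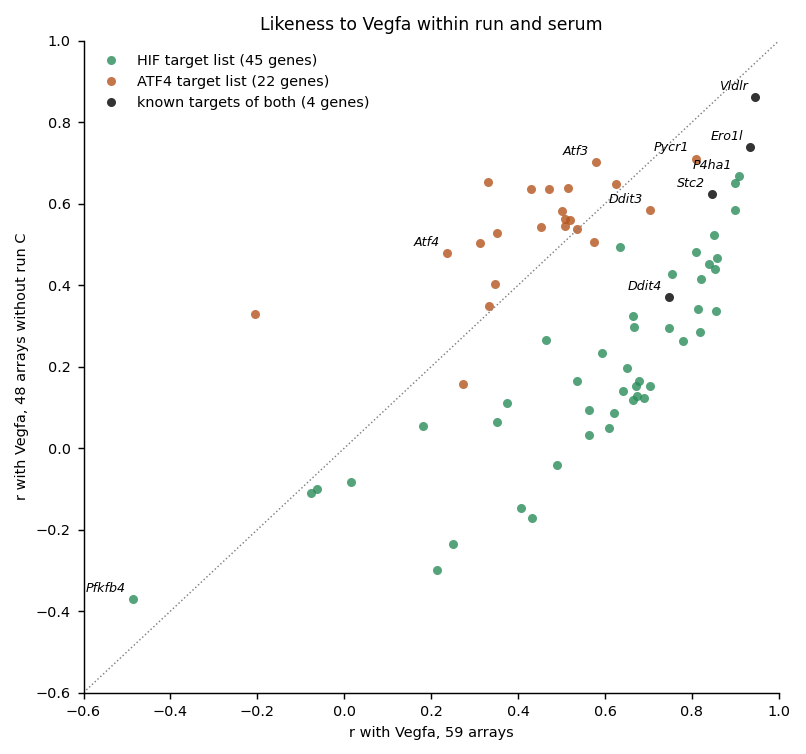
Pearson's r with Vegfa within run and serum for each gene of the HIF and ATF4 lists, over 59 arrays (horizontal) and over the 48 arrays outside run C (vertical). Most HIF targets lie below the dotted line of equal values (medians 0.67 and 0.20), and Vldlr stays highest on both axes (0.94 and 0.86).

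The serum difference of Vegfa was also described at equal levels of other genes. With the run alone it was -0.17. With the mean of the 8 HIF targets as a covariate it was -0.092 (95% confidence interval -0.14 to -0.042), with Atf4 -0.047 (-0.15 to 0.060), with Ddit3 -0.021 (-0.092 to 0.049) and with the mean of the 21 ATF4 targets 0.0077 (-0.074 to 0.090). Without run C the value of -0.24 became -0.11 (-0.19 to -0.035) with the HIF target mean, -0.12 (-0.19 to -0.044) with Atf4, -0.074 (-0.13 to -0.012) with the ATF4 target mean and -0.024 (-0.081 to 0.034) with both means. The loss was not particular to Vegfa. Over all genes, the 457 called with the run alone became 249 with the HIF target mean, 62 with Ddit3, and 0 with Atf4 or with the ATF4 target mean. Atf4 and Ddit3 were themselves lower with carrier serum in 8 of 9 runs, so these values divide a shared difference and do not say which gene acted on which. Over all runs, 19 of the 21 ATF4 targets were called lower with carrier serum, and none of the 8 HIF targets was. The ATF4 list was written with earlier results of these arrays known, so a larger loss with its mean was built into that choice. The intervals are descriptions and not tests.

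Measures of the arrays and of other cells stand beside these over 59 arrays. The deviations of Vegfa had r = -0.013 with the median intensity of the array and -0.19 with the average correlation of an array with the others of its run. The mean of the motor neuron markers had r = -0.30 with Vegfa and that of the progenitor markers -0.23. One marker of each was called against it, the motor neuron factor Isl2 (r = -0.69, adjusted p = 5.54e-05) and the progenitor filament Nes (r = -0.50, adjusted p = 0.0200). Of those not called, the motor neuron markers Isl1 (-0.31) and Lhx3 (-0.36) and the progenitor marker Sox2 (-0.24) had r below 0. Mnx1 (0.14), Chat (0.18), Olig2 (0.19) and Pax6 (0.10) had r above 0. The means of the endothelial, red cell and pluripotency markers had r = 0.052, 0.14 and 0.16. The part of these markers in the results was not tested.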

How the data were processed

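The series holds 59 Affymetrix mouse exon arrays. Per the methods and labels, the authors made the deposited intensities with RMA (aroma.affymetrix, and Affymetrix Expression Console in the processing notes), took the mean of the exons of each gene by the array's annotation and removed outlying arrays beforehand. Intensities were on a linear scale. Software versions and the genome build were not given in the sources used here. The number of arrays limits the precision.

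Intensities were taken to log2 without a pseudocount. Serum was compared with limma 3.58.1 in R 4.3.3 (lmFit and eBayes, two-sided, run as a block, Benjamini-Hochberg over all 19613 genes, threshold 0.05). Likeness to a gene was fitted in limma with that gene's level as a covariate beside the mean of each run and serum (18 means, 41 residual degrees of freedom). Permutations within run and serum numbered 100000. The methods describe sera of individual carrier mice and littermates, but the labels do not tie each array to a mouse, so p-values measure the spread between arrays, which may be partly technical.

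The genes and lists were chosen with earlier results of these data known. Named were the 10 genes, Atf4, the 10 closest and 3 most opposed to Vegfa, up to 6 called genes of each list by smallest p and the extreme runs. Other names (Ddit3, list examples, run C) were chosen after values were seen. Titles shared numbers or letters in 3 runs, and deviations of these 8 pairs had r from -0.13 to 0.33. The main fits did not pair arrays by them. Low r cannot exclude pairing, and in HB9MNs both pairs gave the same r by construction. Alternatives covered the block, scaling, dim genes, variance model, array weights, covariates and each run left out. The scripts were tested on simulated data.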

Additional observations from a re-analysis of the deposited data

How the results depend on the processing

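The difference of Vegfa stayed below 0 under every alternative tried except the ATF4 target mean as a covariate (0.0077, added after the data were seen). The 457 genes called became 1601 without run C, 602 without motorneuron and 627 without HB9MNs, 230 without A, 168 without B, 106 without D, 270 without E, 163 without F, 113 without 10wk, 59 without runs E and F, 2803 with array weights, 6126 with 4 motor neuron genes as covariates, 249 with the HIF target mean as a covariate (added after the data were seen), and 0 with no block or with Atf4 as a covariate. The replicate block called 513 and run C as 2 blocks 647, and neither changed a call among the 9 genes. With dim genes dropped, 655 were called. Of the 49 HIF targets, in place of 3, those called lower numbered 28 without run C, 10 with run C as 2 blocks, 21 with array weights, 19 (and 3 higher) with the motor neuron genes, 5 of the 42 left once dim genes were dropped, 5 without motorneuron, and 0 with no block, with Atf4, without E and F, or without any one of A, B, D, E, F and 10wk. Of the 9 genes, 5 were called without run C and 1, Pdk1, with array weights or the motor neuron genes.

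Signs near 0 turned. Hif1a was at -0.063 with the motor neuron genes, -0.0060 median centred, -0.010 with array weights, and between -0.0054 and -0.0019 without HB9MNs (-0.0039), A (-0.0019), B (-0.0023), C (-0.0054) or E (-0.0024). Car9 was at -0.017 with no block, -0.0048 under the replicate block, -0.042 with Atf4, -0.0027 median centred, -0.055 quantile normalized, and -0.00093, -0.0080, -0.0069 and -0.0016 without motorneuron, A, B and F. With Atf4, Egln3 was at 1.9e-05 and Bnip3 at 0.0078.

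Vegfa and Atf4 had r = 0.50 (adjusted p = 0.00630) with run and serum as additive effects and 0.48 (adjusted p = 0.0467) without run C, and adjusted p from 0.0734 to 0.832 under the other alternatives. Additive effects leave in the deviations the part of the serum difference that varied by run. That r thus draws partly on the serum differences by which Vegfa was chosen and is not separate from them. Vegfa and the HIF target mean had r = 0.78 with run C as 2 blocks and 0.44 without it. The 1156 genes called in the Vegfa fit became 1961 with additive effects, 244 and 168 over carrier or non-carrier arrays alone, 350 with run C as 2 blocks and 29 without it. The causes of these changes were not tested.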
